A study of Rattus norvegicus with 18 samples.

Results

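The genes described here are 40 lysosomal genes of the rat: 11 proteases, 8 glycosidases, 7 hydrolases and carriers of lipids, 4 proteins of the lysosomal membrane, 3 transcription factors of the MiT/TFE family and 7 subunits of the proton pump. They were taken as the rows of the deposited expression tables whose gene name equals one of 40 listed symbols, and all 40 were found, among 22081 rows in all, with 1 row each. RNA-Seq was performed on the lungs of 18 male Fischer 344 (F344/DuCrlCrlj) rats, 3 in each of 6 groups. MWCNT-treated rats received MWNT-7, a multiwalled carbon nanotube with rigid fibers, by intratracheal instillation at 0.5 mg/kg body weight every 4 weeks from 9 weeks of age, and control rats received the saline and Tween 80 vehicle on the same schedule. Lungs were taken at Year 0.5, Year 1 or Year 2, so a later time point also means an older rat and, in the treated arm, more instillations. The RNA came from frozen pieces of the accessory lobe. Tissue with nodules visible to the naked eye was left out, and the rest of the lobe, not the frozen piece itself, was examined under the microscope for tumors. Each rat gave 1 library and was examined at 1 time point only, and the dose and the age at the start are those in the study's methods, not in the sample labels.

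Lysosomes are the acidic organelles in which macrophages and other cells break down material they have engulfed and their own worn components. A rotary proton pump, the V-ATPase, acidifies the lumen, and soluble hydrolases that work at acidic pH reach it through the mannose 6-phosphate route. Transcription of many of these genes is driven together by members of the MiT/TFE family such as TFEB and MITF, basic helix-loop-helix factors that bind short E-box motifs in the promoters. In the lung, alveolar macrophages are rich in lysosomes, and alveolar type 2 cells store surfactant in a lysosome-related organelle, the lamellar body.

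Total counts per library ran from 13297643 to 17868851 in control rats and from 14661589 to 21130757 in MWCNT-treated rats. No pair of libraries within a group looked like a repeat of the same one, and pairs from different groups were not compared. The lowest count of any of the 40 genes in any rat was 36, for Tfec, and the highest was 61541, for Ctsd. All 40 genes passed the filter on low counts in each year. The lung label was borne out by high levels of Sftpc, the surfactant protein C gene of alveolar type 2 cells, which ran from 17721 to 39059 TPM over the 18 rats.

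The lysosomal genes as a whole were higher in MWCNT-treated than in control lungs at every time point. In TPM, a level that is corrected for transcript length and scaled to the same total in every library, their sum was 8932 ± 308 in control rats and 18134 ± 1037 in MWCNT-treated rats at Year 0.5 (mean ± SD, n = 3). The sums were 9208 ± 108 and 19873 ± 982 at Year 1, and 8185 ± 422 and 21789 ± 1267 at Year 2. The highest control rat reached 9299 TPM and the lowest treated rat 17247 TPM, so the groups were far apart. Gene by gene, the 3 treated rats were all above the 3 control rats of the same year for 37, 37 and 38 of the 40 genes, as they were for 14.3%, 12.7% and 15.5% of the 18251 genes with any count. In counts, the genes took 0.824% to 0.957% of a control library and 1.74% to 2.47% of a treated library.

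With edgeR's quasi-likelihood test and a false discovery rate (FDR) adjusted over all genes tested, 37 of the 40 genes were upregulated at Year 0.5, where 20.2% of all 14315 tested genes were. At Year 1 it was 38 of 40, beside 21.6% of 14345 genes, and at Year 2 it was 39 of 40, beside 25.2% of 14361 genes. Not 1 of the 40 was downregulated in any year by edgeR, at an unadjusted p below 0.05 either, or by DESeq2, whereas 18.6%, 19.6% and 24.0% of all tested genes were downregulated by edgeR. With limma on log2(TPM + 1), 1 of the 40, Smpd1, was lower at Year 0.5, where the median of all tested genes was -0.15 on that scale. By edgeR, the median log2 fold change of the 40 genes was 0.86 at Year 0.5, 0.85 at Year 1 and 1.23 at Year 2, and that of all tested genes was -0.02, 0.00 and -0.01.

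A stricter criterion for differentially expressed genes (DEGs) asks for more than a 2-fold change, that is a log2 fold change beyond 1 in either direction, on top of an FDR below 0.05. By it, 17, 17 and 26 of the 40 genes were upregulated DEGs at the 3 time points in turn. The shares of all tested genes that were upregulated DEGs were 6.07%, 6.13% and 8.17%. The same 16 genes met this criterion in all 3 years: 7 proteases (Lgmn, Ctsz, Ctss, Ctsh, Ctsd, Ctsb and Ctsa), 2 glycosidases (Gusb and Gaa), 4 genes of lipid handling (Npc2, Galc, Lipa and Psap), the transcription factors Mitf and Tfec, and the pump subunit Atp6v1b2. Another 8 met it at Year 2 and in neither earlier year, namely Ctsc, Tpp1, Gla, Glb1, Manba, Lamp2, Atp6v1a and Atp6v0c, and 14 met it in no year. The limit cut close for some of them. Of the 16 genes, 10 kept the call in all 3 years under every alternative and with any 1 rat left out, whereas Ctsa and Psap at Year 0.5, Gaa at Years 0.5 and 1, Galc at Year 1, and Mitf and Tfec at Year 1 fell under the limit in at least 1 of them. Of the 8 genes, Gla and Atp6v1a kept it throughout. The other 6 lost it with limma on log2(TPM + 1), a scale on which the median of all tested genes at Year 2 was -0.20. All of these but Glb1 also lost it with library size scaling of the counts, and Atp6v0c, Lamp2 and Manba with upper quartile scaling. Without treated rat 1 of Year 2 it was lost for Atp6v0c and Lamp2. It was also lost without control rat 3 of Year 2 for Atp6v0c and without control rat 2 of Year 2 for Lamp2. The rats agreed closely: the median coefficient of variation of TPM among the 3 rats of a group, taken over the 40 genes, lay between 4.66% and 6.73% in the 6 groups.

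**Figure D1:**
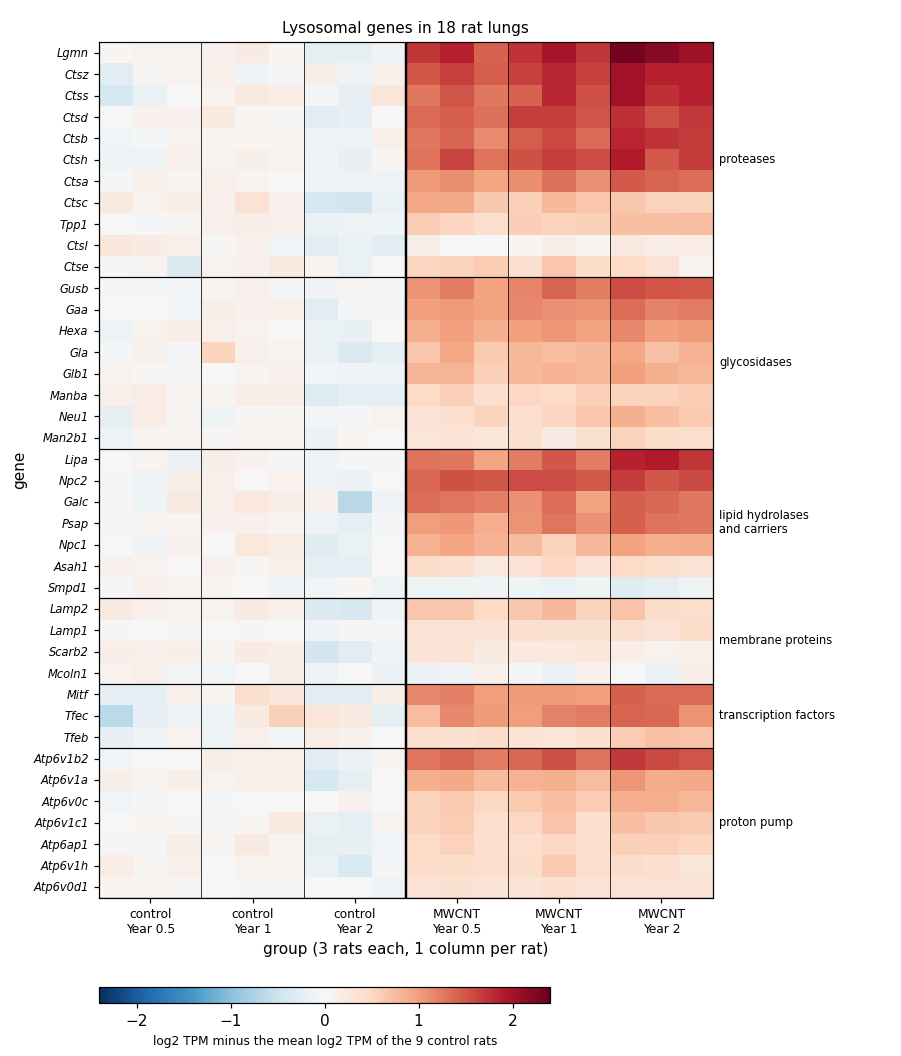
Level of each of the 40 genes (rows, grouped by role) in each of the 18 rats (columns), as log2 TPM minus the mean log2 TPM of the 9 control rats; red is above that mean and blue below. All treated rats are red for most genes, deepest for Lgmn at Year 2, while Smpd1 and Mcoln1 stay pale throughout and Ctsl, Ctsc, Lamp2, Scarb2 and Manba turn bluish in control rats at Year 2.

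In whole-lung RNA, more cells of a type that is rich in these transcripts and more RNA per cell cannot be told apart. Markers of macrophages moved in the same direction. Of 13 macrophage markers, 12 were upregulated at Year 0.5, 11 at Year 1 (with Cd163 downregulated) and 13 at Year 2, with median log2 fold changes of 1.26, 1.30 and 1.49. Their summed TPM ran from 24332 to 30482 in control rats and from 55151 to 64239 in treated rats, most of it from Lyz2, a lysozyme gene that alveolar type 2 cells of rodents also express. At Year 2 the largest log2 fold changes of the 13 were those of Marco (4.64), Cd68 (3.03), Siglec1 (2.83), Msr1 (2.45) and Mrc1 (1.73). The defining markers differed from each other: Cd68, itself a lysosomal glycoprotein, was 75.3 to 113 TPM in control rats and 396 to 638 TPM in treated rats, with log2 fold changes of 2.44 ± 0.08, 2.50 ± 0.14 and 3.03 ± 0.11 (± SE) over the 3 years, whereas Csf1r, the receptor for the macrophage growth factor CSF1, was 133 to 156 against 149 to 188 TPM, with 0.34 ± 0.09, 0.34 ± 0.07 and 0.55 ± 0.06. Alveolar type 2 markers were also upregulated, 9, 8 and 9 of 9, with medians of 0.96, 0.97 and 1.00, while markers of alveolar type 1 cells (5, 4 and 5 of 5) and endothelium (4 of 4 tested in each year) were downregulated. The part of these cell types in the results below was not tested.

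Of the 3 transcription factors, Mitf and Tfec were DEGs in every year and Tfeb was upregulated by less. Mitf (ENSRNOG00000008658, chromosome 4 from 130172727 to 130425532, plus strand; coordinates of the deposited tables, build Rnor_6.0) encodes a factor best known from melanocytes that is also expressed in osteoclasts and macrophages. Its TPM was 5.62, 5.45 and 7.0 in control rats and 14.3, 14.8 and 12.9 in treated rats at Year 0.5, 6.66, 8.37 and 7.76 against 13, 13 and 12.7 at Year 1, and 5.30, 5.34 and 7.04 against 17.3, 16.6 and 16.5 at Year 2. Every treated rat lay above every control rat, at log2 fold changes of 1.36 ± 0.11, 1.00 ± 0.10 and 1.73 ± 0.11, of which that of Year 1 was just past the DEG limit and fell under it in 6 of 9 alternatives and without control rat 1 or treated rat 2. Tfec, whose expression is largely restricted to macrophages, was the least abundant of the 40 genes, at 2.67 to 6.27 TPM in control rats and 7.02 to 11 TPM in treated rats, and its log2 fold changes were 1.45 ± 0.22, 1.12 ± 0.20 and 1.39 ± 0.20, with the DEG call at Year 1 lost in 3 of 9 alternatives and without control rat 1. Its 9 control values and 9 treated values did not overlap, but its control rats scattered widely, with a coefficient of variation of 23.5% at Year 1. Tfeb, the main driver of lysosomal genes in many cells, was 28.8, 30.7 and 34.7 TPM in control rats and 43.3, 42.3 and 44.5 TPM in treated rats at Year 0.5, and 37.1, 35.6 and 32.8 against 50.3, 53.5 and 53.1 TPM at Year 2. Its log2 fold changes were 0.61 ± 0.08, 0.59 ± 0.08 and 0.79 ± 0.08, all with an FDR below 0.05 by edgeR and all under the DEG criterion.

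The promoters of the 40 genes were read for the motif these factors bind, to show where it stands in the genes whose values follow. RefSeq's promoter windows on the build GRCr8, 250 bases before to 50 after the gene start, were at hand for 33 of the 40 genes. The M-box, TCACGTG or its reverse complement CACGTGA, occurred in 7 of the 33 windows (21.2%) and in 942 of all 27457 windows (3.43%). The shorter E-box core CACGTG, which every M-box contains, was in 7 of 33 and in 6.65% of all windows, and the longer CLEAR palindrome, in which G precedes TCACGTG and AC follows it, was in 1 of 33, that of Galc, and in 0.277% of all windows. The 7 genes were Ctsd, Gaa, Glb1, Galc, Lamp1, Mcoln1 and Atp6v0d1, so that 5 of the 6 roles, all but the transcription factors, are represented. The stretches below run from 20 bases before the first M-box to 20 bases after the last, cut at the gene start, and are written 5′ to 3′ on the strand of the gene in lower case, with each M-box in capitals. On the plus strand these are chr10:105028268-105028314 (Gaa), chr8:122963597-122963643 (Glb1) and chr12:6358215-6358257 (Mcoln1), and on the minus strand chr1:206968822-206968998 (Ctsd), chr6:123245560-123245600 (Galc), chr16:83075075-83075267 (Lamp1) and chr19:50357274-50357321 (Atp6v0d1). Lamp1 held the motif at 5 places and Ctsd at 2, where overlapping matches of both orientations count as 1 place. Mcoln1 held another just inside the gene, which is not printed.
Ctsd: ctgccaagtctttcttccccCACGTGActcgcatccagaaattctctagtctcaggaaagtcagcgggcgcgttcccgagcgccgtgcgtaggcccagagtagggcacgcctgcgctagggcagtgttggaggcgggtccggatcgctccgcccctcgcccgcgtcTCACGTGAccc
Lamp1: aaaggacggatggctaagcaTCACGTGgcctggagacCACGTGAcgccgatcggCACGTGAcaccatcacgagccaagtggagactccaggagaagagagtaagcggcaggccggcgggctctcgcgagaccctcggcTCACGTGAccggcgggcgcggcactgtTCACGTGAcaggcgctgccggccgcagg
Galc: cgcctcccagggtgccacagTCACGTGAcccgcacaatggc
Gaa: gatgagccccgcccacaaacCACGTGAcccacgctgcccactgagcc
Glb1: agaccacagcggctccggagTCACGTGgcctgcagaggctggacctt
Atp6v0d1: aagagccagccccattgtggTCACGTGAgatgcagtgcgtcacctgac
Mcoln1: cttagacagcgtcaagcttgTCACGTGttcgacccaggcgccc
The 7 genes with an M-box had median log2 fold changes of 0.85, 0.98 and 1.18 at the 3 time points, and the 26 genes without one had 0.85, 0.78 and 1.20. At Year 2 the former had a range from 0.30 (Mcoln1) to 2.04 (Ctsd) and the latter from 0.04 (Smpd1) to 2.58 (Lgmn). These medians are a description without a test, a motif outside the window would not be seen, and a match does not show that a factor binds there.

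The proteases held the largest changes. Their median log2 fold change was 1.42 at Year 0.5, 1.66 at Year 1 and 1.98 at Year 2, and 10, 11 and 11 of the 11 were upregulated. Summed over the 11, the level was 3839 ± 159 TPM in control rats and 8939 ± 680 TPM in treated rats at Year 0.5, and 3478 ± 260 against 11308 ± 794 TPM at Year 2. Lgmn (ENSRNOG00000007089, chromosome 6 from 126282233 to 126320726, minus strand) encodes legumain, which cuts after asparagine and matures several cathepsins. In control rats it was 194, 198 and 200.2 TPM at Year 0.5, 203, 214 and 194 at Year 1 and 159.7, 161 and 175 at Year 2. In treated rats it was 617, 682 and 504, then 624, 742 and 621, then 926, 858 and 768 TPM. The lowest treated rat of all was thus far above the highest control rat, and Lgmn had the largest log2 fold change of the 40 genes in each year, 1.75 ± 0.11, 1.94 ± 0.11 and 2.58 ± 0.10 (FDR 1.35e-05, 6.00e-06 and 3.14e-07, edgeR).

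The cathepsins Ctsz, Ctss, Ctsh, Ctsd and Ctsb followed among the proteases, with log2 fold changes of 1.42 to 1.73 at Year 0.5 that had become 1.98 to 2.06 at Year 2. Ctsd (ENSRNOG00000020206, chromosome 1 from 215541542 to 215553451, minus strand), the major aspartic protease of the lysosome, was 997, 1074 and 1086 TPM in control rats and 2581, 2717 and 2519 TPM in treated rats at Year 0.5. At Year 2 it was 831, 876 and 1002 TPM against 3383, 2950.0 and 3243 TPM. Its log2 fold changes were 1.45 ± 0.07, 1.75 ± 0.11 and 2.04 ± 0.10. Ctsb (ENSRNOG00000010331, chromosome 15 from 46316741 to 46337612, plus strand), a cysteine protease with endo- and exopeptidase activity, was 811, 828 and 890.0 TPM against 2021, 2217 and 1862 TPM at Year 0.5, and 771, 773 and 915 against 2996, 2793 and 2684 TPM at Year 2. At Year 2 the third control rat was above the other control rats for Ctsb, as it was for 23 of the 40 genes, yet it remained under every treated rat. Ctsh, an aminopeptidase that also takes part in maturing surfactant protein B in alveolar type 2 cells, was 603, 612 and 715 against 1627, 2012 and 1624 TPM at Year 0.5 and 610.1, 582 and 681 against 2445, 1814 and 2086 TPM at Year 2, with the widest scatter of any gene among the treated rats of Year 2 (a coefficient of variation of 15%). Ctss, which trims the invariant chain of MHC class II in antigen-presenting cells, was 56.9, 68.3 and 76.6 against 182, 217 and 183 TPM at Year 0.5 and 74.3, 66.3 and 92.3 against 305, 255 and 276 TPM at Year 2. Ctsz, a carboxypeptidase, was 129, 159 and 165 against 442, 485 and 426 TPM at Year 0.5 and 173, 147 and 169.8 against 630.0, 567 and 567 TPM at Year 2. None of these 5 cathepsins showed any overlap between treated and control rats.

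The remaining proteases changed less. Ctsa, the carboxypeptidase that protects β-galactosidase and neuraminidase in a complex, was a DEG in every year, with log2 fold changes of 1.13 ± 0.08, 1.36 ± 0.11 and 1.72 ± 0.08. Ctsc, which activates the serine proteases of immune cell granules, had 0.82 ± 0.09, 0.73 ± 0.10 and 1.13 ± 0.09, and Tpp1, a tripeptidyl peptidase, 0.66 ± 0.07, 0.68 ± 0.07 and 1.06 ± 0.06. Ctse, an aspartic protease of endosomes, was 14.7 to 21.2 TPM in control rats and 19.6 to 29.4 TPM in treated rats, and its largest difference was at Year 0.5, 0.79 ± 0.11 against 0.57 ± 0.13 at Year 2. Ctsl stood apart. This cysteine endopeptidase was 297, 281 and 265 TPM in control rats and 269.8, 244 and 247 TPM in treated rats at Year 0.5, which overlapped, and the log2 fold change was -0.01 ± 0.07 (FDR 0.955). At Year 1 the values, 251, 263 and 235 against 252, 272 and 252 TPM, still overlapped, although the edgeR test on counts gave 0.29 ± 0.09 (FDR 0.027), a call that was lost with other scalings and without control rat 2 or control rat 3. At Year 2 it was 206, 220.3 and 204 TPM in control rats and 286, 274 and 278 TPM in treated rats, without overlap, at 0.63 ± 0.07 (FDR 8.46e-05). Between Year 0.5 and Year 2 Ctsl fell in control rats (-0.42 ± 0.07, FDR 0.00436), and the difference in treated rats was 0.22 ± 0.07 (FDR 0.0511).

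**Figure D2:**
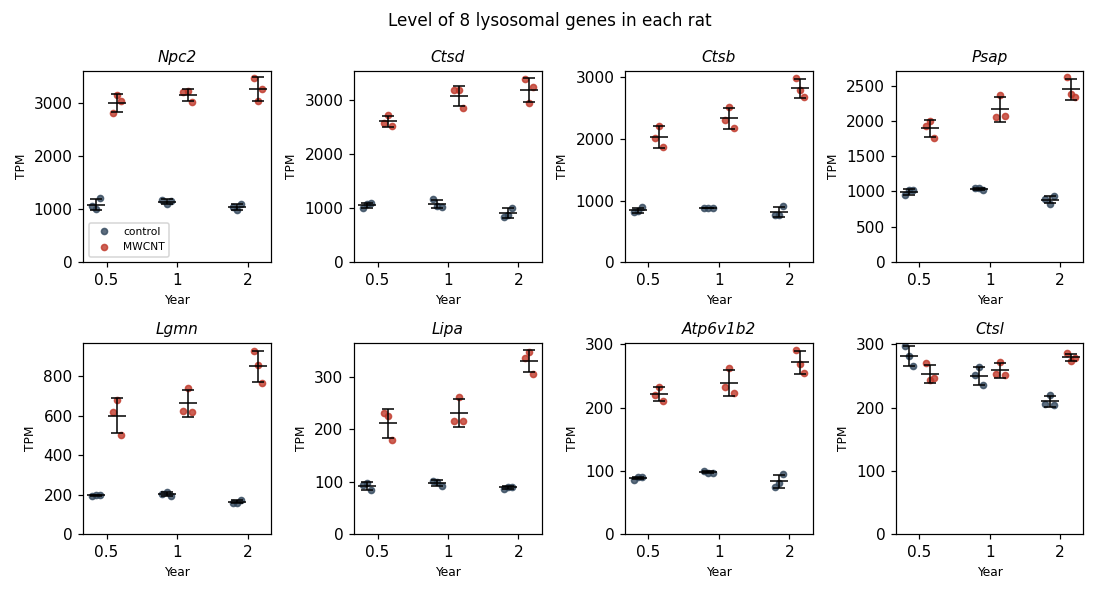
TPM of 8 of the genes in each rat (points), with the mean and SD of the 3 rats of each group (bars), by time point; control rats are dark and MWCNT-treated rats red. For 7 of the 8 genes all treated rats lie above all control rats at every time point, whereas for Ctsl the groups overlap until Year 1 and separate at Year 2.

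All 8 glycosidases were upregulated in each of the 3 years, with median log2 fold changes of 0.87, 0.88 and 1.24, and no treated rat overlapped a control rat of the same year. Gusb (ENSRNOG00000000913, chromosome 12 from 30198822 to 30227771, plus strand), β-glucuronidase, changed most. It was 23.5, 23.8 and 24 TPM in control rats and 51.7, 57.3 and 47.7 TPM in treated rats at Year 0.5, and 22.9, 25.4 and 24 against 72.5, 69.8 and 68 TPM at Year 2, with log2 fold changes of 1.28 ± 0.09, 1.45 ± 0.10 and 1.76 ± 0.07. Gaa, the acid α-glucosidase that degrades glycogen and the other glycosidase that was a DEG throughout, was 40.7, 41.2 and 39.3 against 80.7, 82.6 and 80.4 TPM at Year 0.5 and 34.5, 40.1 and 39.7 against 104, 93.9 and 97.2 TPM at Year 2. Its log2 fold changes were 1.15 ± 0.06, 1.22 ± 0.07 and 1.59 ± 0.08. Hexa, the α subunit of β-hexosaminidase that acts on ganglioside GM2, lay on the DEG boundary at Year 0.5 with 1.00 ± 0.09 and reached 1.38 ± 0.08 at Year 2. Among the others at Year 2 were Gla, α-galactosidase A (1.29 ± 0.13), Glb1, β-galactosidase (1.18 ± 0.08), Manba, β-mannosidase (1.04 ± 0.07), Neu1, the lysosomal sialidase (0.96 ± 0.09), and Man2b1, α-mannosidase (0.72 ± 0.07). Man2b1 had the smallest difference of the 8 in each year but was still 86, 97.3 and 93.3 TPM in control rats against 137, 128 and 127 TPM in treated rats at Year 2.

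Of the 7 genes that handle lipids, 6 were upregulated in each year and Smpd1 was not. Npc2 (ENSRNOG00000012062, chromosome 6 from 108467410 to 108488330, minus strand), the small soluble protein that binds cholesterol in the lysosome, was the most abundant of the 40 genes in both arms. It was 1059, 999.7 and 1202 TPM in control rats and 2822, 3151 and 3043 TPM in treated rats at Year 0.5, and 1033, 984 and 1101 against 3489.8, 3052 and 3279 TPM at Year 2, with log2 fold changes of 1.61 ± 0.09, 1.70 ± 0.09 and 1.87 ± 0.09. Npc1, the membrane protein to which NPC2 hands cholesterol, was 42.4, 40.05 and 45.8 against 75.7, 81.4 and 76 TPM at Year 0.5, 42.1, 50.4 and 48.3 against 72.2, 62.5 and 72.9 TPM at Year 1 and 34.8, 38.2 and 42.4 against 83.1, 78 and 78.7 TPM at Year 2. It was a DEG at Year 0.5 (1.01 ± 0.07) and Year 2 (1.27 ± 0.08) but at 0.80 ± 0.08 not at Year 1. The call at Year 0.5 was just past the limit. It was kept in 5 of 9 alternatives and lost without control rat 2 or treated rat 2. The difference between its effects at Year 0.5 and Year 1 was not called by edgeR. Lipa (ENSRNOG00000019077, chromosome 1 from 252816527 to 252849904, minus strand), the acid lipase that frees cholesterol and fatty acids from lipoprotein lipids, was 93.7, 97.6 and 84.4 TPM in control rats and 230.1, 224 and 179 TPM in treated rats at Year 0.5. At Year 1 it was 102, 100.2 and 90.9 against 216, 262 and 216 TPM, and at Year 2 86, 90.5 and 90.6 against 335, 347 and 305 TPM. The control rats of all time points lay within a narrow band while the treated rats of Year 2 stood above those of both earlier time points, and the log2 fold changes were 1.34 ± 0.11, 1.49 ± 0.12 and 2.10 ± 0.08 (FDR 2.98e-07 at Year 2, edgeR).

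Psap (ENSRNOG00000000571, chromosome 20 from 29831314 to 29856875, plus strand) encodes the precursor of the saposins, which present sphingolipids to their hydrolases. It was 947, 1016 and 1019.7 TPM against 1932, 1999 and 1765 TPM at Year 0.5 and 893, 829.5 and 933 against 2621, 2388 and 2334 TPM at Year 2, at 1.08 ± 0.08, 1.30 ± 0.11 and 1.68 ± 0.10. Galc, the galactosylceramidase whose promoter holds the CLEAR motif, was 9.61, 8.76 and 10.9 against 23.9, 22.8 and 21.8 TPM at Year 0.5 and 10.1, 5.91 and 8.66 against 25.4, 24.4 and 22.6 TPM at Year 2. The control rats of Year 2 scattered more for Galc than for any other of the 40 genes, with a coefficient of variation of 25.8%, and its log2 fold change there, 1.76 ± 0.18, had the wider error. Asah1, acid ceramidase, had 0.44 ± 0.08, 0.54 ± 0.10 and 0.78 ± 0.08. Smpd1 encodes acid sphingomyelinase and was the only lipid gene of the 7 without a call. It was 136, 149 and 146 TPM in control rats and 128, 128 and 130.0 TPM in treated rats at Year 0.5, and 132, 144 and 128 against 114, 117 and 127 TPM at Year 2. On the TPM scale every treated rat lay below every control rat of the same year, as 33.0% to 38.2% of the 18251 genes with any count did, but with edgeR's scaling of the counts the log2 fold changes were -0.01 ± 0.06, 0.12 ± 0.07 and 0.04 ± 0.07 (FDR 0.873, 0.206 and 0.662). The direction of Smpd1 thus depended on the scale, and limma on log2(TPM + 1) called it lower at Year 0.5. On that scale the median of all tested genes was itself shifted, to -0.15, -0.21 and -0.20 in the 3 years. The median of the 40 genes was 0.85, 0.82 and 1.18 above it.

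The 4 membrane proteins changed least, with median log2 fold changes of 0.38, 0.47 and 0.63. Lamp1, one of the most abundant lysosomal membrane glycoproteins, was 549, 546 and 554 TPM in control rats and 687, 685 and 675 TPM in treated rats at Year 0.5, and 507, 553 and 525 against 707, 685 and 730.3 TPM at Year 2. The gap was small but clean, at 0.46 ± 0.06, 0.60 ± 0.08 and 0.64 ± 0.07. Lamp2, its relative that also serves chaperone-mediated autophagy, had 0.59 ± 0.08, 0.76 ± 0.10 and 1.01 ± 0.11, and became a DEG at Year 2. At that time point its control rats were at 166, 159.7 and 194 TPM, under the 243, 229 and 222 TPM of Year 0.5, while its treated rats were at 335, 284 and 281 TPM, close to the 329, 329 and 291 TPM of Year 0.5. Scarb2, the receptor LIMP-2 that carries β-glucocerebrosidase to the lysosome, was lower in TPM in every rat of Year 2 than in every rat of Year 0.5 of the same arm, with 200.1, 195 and 200.4 against 226, 227 and 209 TPM at Year 0.5 and 131, 149 and 168 against 201, 192 and 196 TPM at Year 2, and its log2 fold changes were 0.30 ± 0.06, 0.34 ± 0.07 and 0.62 ± 0.08. From Year 0.5 to Year 2, edgeR called Scarb2 lower in control rats but not in treated rats. Mcoln1, the calcium channel TRPML1, overlapped between the arms in each year, at 27.9 to 34 TPM in control rats and 27.6 to 34.4 TPM in treated rats. Its log2 fold changes were 0.06 ± 0.09, 0.18 ± 0.09 and 0.30 ± 0.10 (FDR 0.64, 0.13 and 0.0331, edgeR). The call at Year 2 was lost with library size scaling, upper quartile scaling, limma and the replicate block, and without 5 of the 6 rats taken 1 at a time, all but treated rat 2.

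All 7 proton pump subunits were upregulated in each year and overlapped in none, with median log2 fold changes of 0.66, 0.69 and 0.97. Atp6v1b2 (ENSRNOG00000011891, chromosome 16 from 22326529 to 22350155, minus strand), the B subunit isoform of macrophages and many other cells in the part of the pump that splits ATP, changed most. It was 86.4, 90.2 and 90.2 TPM in control rats and 219.9, 233 and 211 TPM in treated rats at Year 0.5, and 75.5, 81.1 and 94.6 against 291, 268 and 255 TPM at Year 2, at 1.46 ± 0.07, 1.53 ± 0.10 and 1.92 ± 0.10. Its partner Atp6v1a, the catalytic A subunit, was 87.3, 83.5 and 87.2 against 145, 149 and 134 TPM at Year 0.5 and 59.3, 67.8 and 78.5 against 165, 148 and 150.1 TPM at Year 2, at 0.88 ± 0.07, 0.95 ± 0.08 and 1.39 ± 0.10. Of the other subunits of the ATP-splitting part, Atp6v1c1 had 0.66 ± 0.08 at Year 0.5 and 0.97 ± 0.09 at Year 2, and Atp6v1h had 0.46 ± 0.06 and 0.77 ± 0.10. In the membrane part, Atp6v0c, which forms the proton-carrying ring, was the most abundant of the 7 and went from 536, 572 and 530.2 TPM in control rats to 972, 964 and 924 TPM in treated rats at Year 2 (1.02 ± 0.07). Atp6v0d1, which links ring and stalk, had 0.45 ± 0.06, 0.60 ± 0.08 and 0.59 ± 0.07, and the accessory subunit Atp6ap1 had 0.57 ± 0.07, 0.57 ± 0.08 and 0.93 ± 0.07. The subunits of the pump therefore did not change by one factor: at Year 2 the log2 fold changes spread from 0.59 to 1.92.

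**Figure D3:**
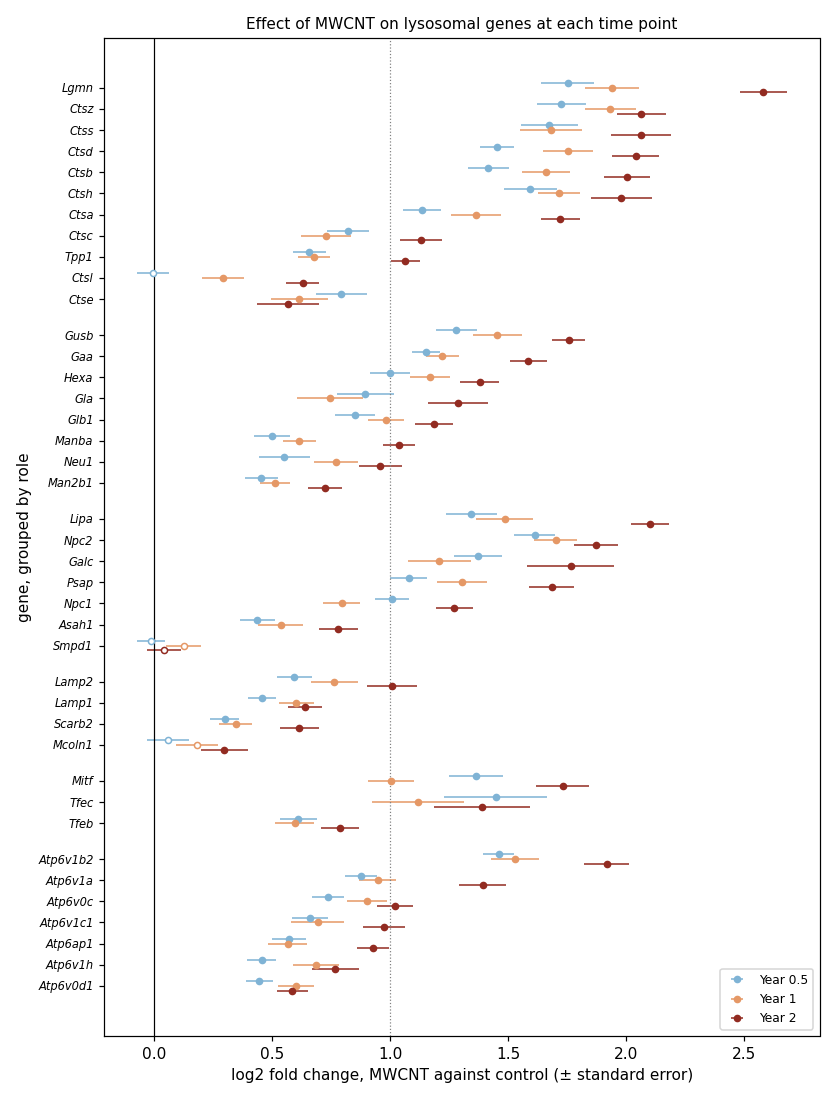
Log2 fold change of MWCNT-treated against control rats with its standard error (edgeR, 3 against 3 rats) for each of the 40 genes at Year 0.5 (blue), Year 1 (orange) and Year 2 (dark red), grouped by role; filled points have an FDR below 0.05 and the dotted line marks the DEG limit. Only Ctsl, Mcoln1 and Smpd1 have open points, and for 36 of the 40 genes the Year 2 point is the farthest to the right.

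The 5 most abundant genes of the module were the same in both arms, but the order of the genes was not. By mean TPM at Year 2, Lipa had rank 22 in control rats and rank 11 in treated rats. Ctss had rank 24 and rank 14, and Scarb2 had rank 14 and rank 21. In control rats of each time point the 5 most abundant genes were Npc2, Ctsd, Psap, Ctsb and Ctsh, and in treated rats the same 5 genes led. They held 51.7% to 52.5% of the module's summed TPM in control groups and 62.3% to 63.9% in treated groups.

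The study asked how the response develops over time, so the treatment effects of different years were compared in one edgeR model of all 18 rats. The log2 fold change was largest at Year 2 for 36 of the 40 genes, the exceptions being Ctse, Smpd1, Tfec and Atp6v0d1. Between Year 0.5 and Year 2 the effect grew for 11 of the 40 genes (FDR below 0.05 for the interaction of treatment and time) and shrank for 0, where 0.856% of all 14843 tested genes had a growing and 0.451% a shrinking log2 fold change. At an unadjusted p below 0.05 the effect grew for 32 of the 40, where 13.8% of all tested genes differed in either direction. The 11 were 6 proteases (Lgmn, Ctsl, Ctsd, Ctsa, Ctsb and Tpp1), the glycosidases Manba and Gaa, the lipid genes Lipa and Psap, and the pump subunit Atp6v1a. Lgmn gained 0.84 ± 0.16 (FDR 0.0209), Lipa 0.76 ± 0.16 (FDR 0.0269), Ctsl 0.64 ± 0.10 (FDR 0.0077) and Manba 0.55 ± 0.09 (FDR 0.00757) on the log2 scale. The count of 11 rested on few rats, since it ranged from 2 to 14 when each of the 18 rats was left out in turn, and was 2 without treated rat 1 of Year 2 or without treated rat 3 of Year 0.5. Ctsl and Manba kept their calls in all 18 of these fits.

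Between Year 1 and Year 2 the effect grew for 4 genes, Manba, Mitf, Npc1 and Tpp1, beside 0.317% of all tested genes, but this count ran from 0 to 13 over the rats left out. Between Year 0.5 and Year 1 edgeR called 0 of the 40 genes, and 0 of all tested genes, with 4 of the 40 at an unadjusted p below 0.05, beside 8.49% of all tested genes. DESeq2 and limma on log2(TPM + 1) called 0 of the 40 as well.

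The changes over time were then tested within each arm. In MWCNT-treated rats 17 of the 40 genes rose from Year 0.5 to Year 2, beside 6.65% of all tested genes, and 0 fell, beside 6.87%. The largest rise was that of Lipa, 0.72 ± 0.11 on the log2 scale (FDR 4.59e-04), followed by Ctss with 0.61 ± 0.14, Lgmn with 0.58 ± 0.11, Ctsb with 0.56 ± 0.09 and Gusb with 0.51 ± 0.09. In control rats 6 genes fell over the same time, beside 4.00% of all tested genes, and 0 rose, beside 2.65%: Ctsc (-0.48 ± 0.10), Ctsl (-0.42 ± 0.07), Lamp2 (-0.41 ± 0.10), Scarb2 (-0.41 ± 0.07), Manba (-0.38 ± 0.06) and Atp6v1a (-0.32 ± 0.08). No gene was in both sets. Of the 11 genes whose effect grew, 8 rose in treated rats (Lgmn, Lipa, Psap, Ctsd, Ctsa, Ctsb, Gaa and Tpp1), and 3 fell in control rats (Ctsl, Manba and Atp6v1a). All 11 had a log2 change above 0 in treated rats and below 0 in control rats, and whether the 8 and the 3 differ from each other was not tested. The 3 had 0.22, 0.17 and 0.20 in treated rats without a call, and the 8 ran from -0.25 (Lgmn) to -0.03 (Ctsb) in control rats without a call. The counts of 17 and 6 ranged from 11 to 21 and from 3 to 7 over the rats left out. The lowest of the first was without treated rat 1 of Year 2, and the lowest of the second without control rat 1 of Year 0.5 or control rat 1 or 2 of Year 2. From Year 1 to Year 2, 9 genes fell in control rats (5.00% of all tested genes) and 0 rose (2.93%), and in treated rats 3 rose (2.68%) and 0 fell (3.26%), all of them counts that single rats moved. From Year 0.5 to Year 1, edgeR and DESeq2 called 0 of the 40 in either arm, with 4 at an unadjusted p below 0.05 in control rats (7.01% of all tested genes) and 10 in treated rats (9.24%) by edgeR. At an FDR below 0.05, 0 of all genes in control rats and 0.0808% (higher) and 0.0202% (lower) in treated rats were called. Age, time, the date of necropsy and, in treated rats, the number of instillations cannot be told apart here.

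**Figure D4:**
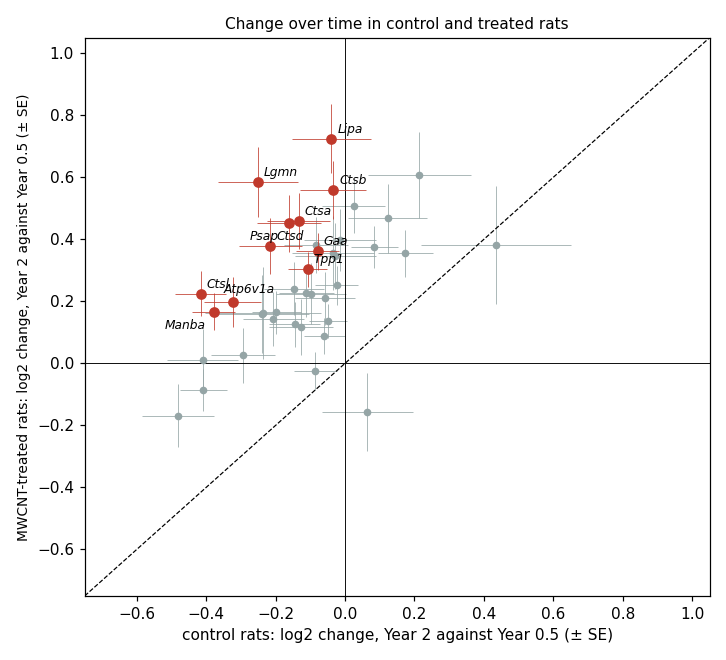
Log2 change from Year 0.5 to Year 2 in control rats (horizontal axis) and in MWCNT-treated rats (vertical axis), each with its standard error, for the 40 genes; red points are the 11 genes whose treatment effect grew with an FDR below 0.05, and on the dashed line both changes are equal. Lipa, Ctsb and Lgmn lie high, with rises in treated rats, whereas Ctsl, Manba and Atp6v1a lie to the left, with falls in control rats.

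Lysosomal genes outside the 40 were followed by lists of their roles. Of 25 tested genes for other lysosomal hydrolases, 17, 17 and 20 were upregulated at the 3 time points and 1 downregulated at each (Hyal1, a hyaluronidase, at the first and second, and Ctsw, a cathepsin of cytotoxic lymphocytes, at Year 2). Their median log2 fold changes were 0.60, 0.68 and 0.91, under the medians of the 40 genes. Ctsk, the collagen-degrading cathepsin of osteoclasts, went from 13.5 to 25.1 TPM in control rats to 315 to 497 TPM in treated rats, and its log2 fold changes of 4.36 ± 0.15, 4.49 ± 0.20 and 4.71 ± 0.24 were above that of every one of the 40. Gm2a, the activator that lifts ganglioside GM2 for the hexosaminidase of which Hexa is a subunit, grew over time, at 1.58 ± 0.13, 1.97 ± 0.14 and 2.73 ± 0.12. Dpp7 (1.71), a dipeptidyl peptidase, Acp5 (1.66), the tartrate-resistant acid phosphatase, and Scpep1 (1.41), a serine carboxypeptidase, followed at Year 2.

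Of 12 tested genes for other lysosomal membrane proteins, 9 were upregulated in each year, led at Year 2 by the metal transporter Slc11a1 (1.97), the tetraspanin Cd63 (1.70), the nucleoside transporter Slc29a3 (1.26), the chloride exchanger Clcn7 (1.21) and Laptm5 (1.10), and Mfsd8 alone was downregulated, at Year 0.5. Of 13 tested genes for other pump subunits, 9, 10 and 9 were upregulated and 0 downregulated. Atp6v0d2, the d isoform of osteoclasts and macrophages, was 1.66 to 5.59 TPM in control rats and 39.1 to 77.8 TPM in treated rats, at 4.05 ± 0.17, 3.95 ± 0.21 and 4.87 ± 0.19, while Atp6v0d1 of the 40 genes, the d isoform found in all tissues, was at 0.59 at Year 2. Tcirg1, the a3 isoform of osteoclasts and macrophages, followed with 1.46, then Atp6ap2 with 1.28, Atp6v0a1 with 0.91 and Atp6v1e1 with 0.76.

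Inhibitors of cathepsins were also higher: 4 of 5 tested were upregulated in each year, with Cstb (1.43), Serpinb1a (1.36), Cst7 (0.94) and Cst3 (0.72) named at Year 2, and Cst6 was downregulated at Year 1. Of 7 genes listed for the targeting of lysosomal enzymes, not all of them of the mannose 6-phosphate route, 4, 5 and 4 were upregulated. They were led at Year 2 by the receptor Igf2r (1.00) and the phosphotransferase subunit Gnptab (0.71), with M6pr at 0.40. Sumf1, which activates the sulfatases, was at 0.29. The alternative sorting receptor Sort1 was downregulated in each year (-0.21, -0.39 and -0.39). Of 8 tested genes around the TFEB family, 5, 5 and 6 were upregulated and 0 downregulated. Gpnmb, a membrane glycoprotein and known target of MITF, stood out with 229 to 367 TPM in control rats and 2065 to 4353 TPM in treated rats, at 3.06 ± 0.13, 3.23 ± 0.14 and 4.13 ± 0.16. The other named genes at Year 2 belong to the folliculin and Rag GTPase machinery that holds TFEB at the lysosome surface, namely Fnip2 (1.56), Rragc (1.09), Rragd (0.66) and Flcn (0.36).

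**Figure D5:**
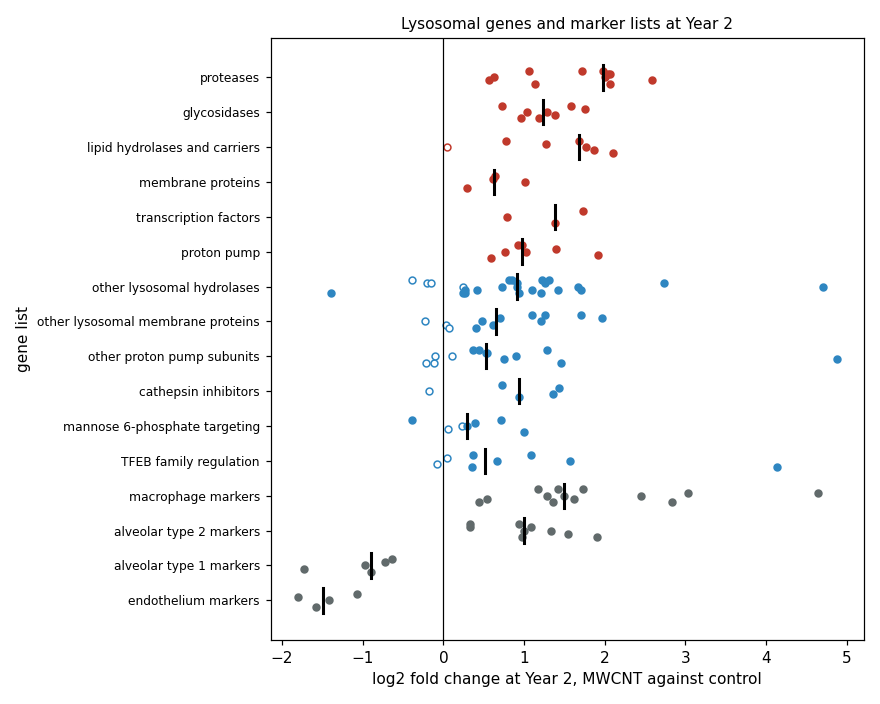
Log2 fold change at Year 2 of every tested gene (points) in the 6 role groups of the 40 lysosomal genes (red), 6 lists of other lysosomal genes (blue) and 4 cell type marker lists (grey), with the median of each list as a black bar; filled points have an FDR below 0.05 (edgeR). The proteases have the highest median of the lists shown, 1.98, macrophage markers have 1.49, and the markers of alveolar type 1 cells and endothelium lie below 0.

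Reads of 5 of the 40 genes could be shared with a gene that overlaps them in the deposited coordinates, since the strand setting of the counting is not given in the sources used here. For Ctsa the neighbor on the other strand is Pltp, with 4318 to 7468 counts per rat and log2 fold changes of -0.24, 0.10 and 0.40, all smaller than those of Ctsa, and Neurl2 with at most 70 counts. Gusb overlaps Vkorc1l1 (0.38, 0.58 and 0.61), Asah1 overlaps Pcm1 (-0.14, -0.32 and 0.01) and Npc1 overlaps Rmc1 (0.11, 0.13 and 0.23), and in each case the change of the lysosomal gene was larger. The gene overlapping Lamp1 had 0 counts in every rat.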

How the data were processed

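RNA-Seq of 18 rat lungs, 3 per treatment and time point, was analysed from 3 deposited expression tables, 1 per time point. Per the study's methods, total RNA was made into libraries with a NEBNext Ultra II kit, and the authors mapped reads to the rat genome and counted them per gene in CLC Genomics Workbench, on the build Rnor_6.0 (rn6) per the submitters' processing notes. The values used were the deposited counts of reads per gene, which are not normalized, and the deposited TPM, which the authors' software scaled to the same sum in each library. The tables also hold RPKM, CPM and the authors' own comparisons (fold changes and p-values), which were not used.

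Counts were tested in R 4.3.3 with edgeR 4.0.16 (filterByExpr with a minimum count of 10, TMM scaling, glmQLFit and glmQLFTest, two-sided, Benjamini-Hochberg adjustment over all genes tested). Each year was fitted on its 6 rats, and effects of time and interactions in 1 model of all 18 rats. Fold changes are given on the log2 scale with standard errors (SE), and TPM values were not tested. Means are given with the SD of 3 rats. The rats were separate animals, so replicate numbers did not pair them. The symbols of the 40 genes and the lists of other lysosomal genes and cell type markers were chosen with earlier results of these data known. Named were all 40 genes and, of each other list of lysosomal genes and of the macrophage markers, up to 5 genes. These were the genes with the largest absolute log2 fold change at Year 2 among those with an FDR below 0.05 there. The rule was also set for the other cell types, beside the defining markers of each, but only some of those genes are named in the text. Genes outside this rule that were downregulated (Hyal1, Ctsw, Mfsd8, Cst6, Cd163), Lyz2, Mpo and genes that overlap one of the 40 were named after their values were seen.

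The counting depth of 13297643 to 21130757 per library limits precision most for Tfec, the gene with the lowest counts. The fitting script was run on simulated counts, with far fewer changed genes than were called between the arms here. Alternatives were no filter on low counts, a filter that asks each rat for 10 counts, library size or upper quartile scaling, DESeq2 1.42.0, limma 3.58.1 on log2(TPM + 1) or log2(TPM + 0.1), the replicate number as a block, 1 model of all rats for the yearly tests, only the rats compared for the tests over time, an FDR below 0.01, and leaving out each rat in turn. Promoter windows came from RefSeq on GRCr8, matched by symbol, and their coordinates are not those of the deposited tables. Figures were drawn with matplotlib 3.10.9.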

Additional observations from a re-analysis of the deposited data

Results flagged for a closer look

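For 15 comparisons of 2 time points, the effect of MWCNT differed between the time points by a test of the difference itself (the interaction of treatment and time, edgeR's quasi-likelihood test, FDR below 0.05), in each case with the larger effect at Year 2. Against Year 0.5, the difference in log2 fold change was 0.84 ± 0.16 (± SE) for Lgmn, 0.76 ± 0.16 for Lipa, 0.64 ± 0.10 for Ctsl, 0.61 ± 0.13 for Psap, 0.59 ± 0.13 for Ctsd, 0.59 ± 0.13 for Ctsa and 0.59 ± 0.13 for Ctsb. It was 0.55 ± 0.09 for Manba, 0.52 ± 0.12 for Atp6v1a, 0.44 ± 0.09 for Gaa and 0.41 ± 0.08 for Tpp1. Against Year 1, the difference was 0.74 ± 0.16 for Mitf, 0.49 ± 0.10 for Npc1, 0.44 ± 0.09 for Manba and 0.40 ± 0.08 for Tpp1. Of the 18 fits that left out 1 rat, Ctsl and Manba kept the call against Year 0.5 in 18, Lgmn in 15, Tpp1 in 14, Gaa in 13, Psap in 12, Lipa in 11, Ctsa and Ctsd in 10, Atp6v1a in 8 and Ctsb in 7. The calls against Year 1 were kept in 7 fits for Manba and Tpp1, in 6 for Mitf and in 5 for Npc1. Of 8 alternatives, the call against Year 0.5 was kept in 7 for Gaa, 5 for Ctsb and 3 for Atp6v1a and in all 8 for the other 8 genes, and that against Year 1 in 5 for Tpp1, 3 for Manba and 2 for Npc1 and Mitf. No alternative or left-out rat turned the direction of any of the 15 differences.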

How the results depend on the processing

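The number of the 40 genes upregulated at an FDR below 0.05 ranged over all alternatives from 37 to 37 at Year 0.5, 36 to 38 at Year 1 and 38 to 39 at Year 2, and the number of DEGs from 13 to 18, 12 to 18 and 20 to 28. Counts over time were less stable. With 1 rat left out, the growing effects from Year 0.5 to Year 2 numbered 2 to 14 in place of 11: 2 without treated rat 1 of Year 2 or treated rat 3 of Year 0.5, 3 without control rat 2 of Year 2, 4 without control rat 2 of Year 0.5, and 5 without control rat 3 of Year 0.5, control rat 1 of Year 2 or treated rat 1 of Year 0.5. From Year 1 to Year 2 they numbered 0 to 13 in place of 4: 13 without treated rat 2 of Year 1, 9 without control rat 3 of Year 2, 1 without control rat 2 or treated rat 1 of Year 0.5, and 0 without control rat 1 of Year 0.5, control rat 2 or 3 of Year 1, control rat 1 or 2 of Year 2, treated rat 1 or 3 of Year 1 or any treated rat of Year 2. With all rats, this count was 0 with no filter, library size or upper quartile scaling, 1 with limma at either pseudocount and 10 with DESeq2. In control rats, the genes that differed between Year 2 and Year 0.5 (6) were 3 to 7 with 1 rat left out, with the 3 under control rat 1 of Year 0.5 and control rats 1 and 2 of Year 2, and 3 with the 6 rats compared alone. Those that fell from Year 1 to Year 2 (9) were 2 to 11 with 1 rat left out (2 without control rat 2 of Year 1 or control rat 1 or 2 of Year 2, 3 without control rat 3 of Year 1), 5 with upper quartile scaling and 0 with the 6 rats compared alone. In treated rats, the 17 that rose from Year 0.5 to Year 2 were 11 to 21, with 11 without treated rat 1 of Year 2. The 3 that rose from Year 1 to Year 2 (Lipa, Mitf and Tfeb) were 0 to 11 (11 without treated rat 2, 0 without treated rat 1 and 1 without treated rat 3 of Year 1 or treated rat 2 of Year 2), and 8 with DESeq2. The causes were not tested.

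Scaling by library size or TPM moved the median of all genes by -0.10 to -0.23. The direction turned for 3 genes without a call at that time point. Ctsl at Year 0.5 (-0.01) was 0.00058 with DESeq2 and -0.051 to 0.037 with 1 rat left out. Smpd1 was -0.053 to 0.017 at Year 0.5 with 1 rat left out (0.0015 without treated rat 3), -0.010 with library size scaling and -0.11 with limma at either pseudocount at Year 1, and at Year 2 -0.13 with library size, -0.013 with upper quartile, -0.17 with limma at either pseudocount and -0.0066 (without control rat 3) to 0.077 with 1 rat left out. Mcoln1 at Year 0.5 was -0.046 with library size, -0.086 and -0.089 with limma and -0.0015 (without treated rat 3) to 0.11 with 1 rat left out, and at Year 1 -0.050 and -0.052 with limma. The call of Scarb2 at Year 1 (0.34) was lost with limma (0.11 at either pseudocount).

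The replicate number as a block is no pairing of these rats. Over 9 pairs of a control and a treated rat with the same number and year, deviations correlated from -0.15 to 0.11, above 0.1 in 1. With the block, the genes that rose in treated rats from Year 1 to Year 2 numbered 5 in place of 3, Mcoln1 at Year 2 (0.29) was no longer called, and growing effects from Year 0.5 to Year 2 numbered 10.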

Other observations

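Marker lists of cell types other than those given above moved as follows with MWCNT (edgeR, FDR below 0.05). Beside them, 20.2%, 21.6% and 25.2% of all tested genes were upregulated at the 3 time points in turn, and 18.6%, 19.6% and 24.0% were downregulated. The lists are short, and some of their counts are near these shares. Of 3 club cell markers, 2, 3 and 2 were downregulated at the 3 time points in turn, and of 4 T cell markers 2, 0 and 4. Of 4 B cell markers, 4, 1 and 2 were downregulated. Among 4 tested neutrophil markers, 1, 2 and 2 were upregulated, led at Year 2 by the calprotectin genes S100a9 (2.21) and S100a8 (1.51). The granule gene Mpo was at or near 0 TPM in all rats, with at most 0.15. Of 4 tested fibroblast markers, 1, 0 and 1 were upregulated, and 2 downregulated in each year, with Col1a1 at 1.22 and Dcn at -1.31 on the log2 scale at Year 2. Heart muscle markers, of which 6, 6 and 5 were tested, were downregulated in 6, 1 and 1 cases, and their summed TPM ran from 72.9 to 669.9 in control rats and from 15.6 to 202 in treated rats, so the pieces of lobe differed in how much of this RNA they held.

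Within the groups, the 40 lysosomal genes tended to be high in the same rat. Whether other genes did so too was not examined. Treated rat 1 of Year 2 was the highest of its 3 for 32 of the 40 genes, treated rat 2 of Year 1 for 26, treated rat 2 of Year 0.5 for 25 and control rat 3 of Year 2 for 23, and treated rat 3 of Year 0.5 was the lowest of its 3 for 29.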
